A study of Mus musculus with 6 samples.

Results

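The endoplasmic reticulum (ER) folding, secretion quality control and unfolded protein response genes examined here are 45 mouse genes, chosen by their known roles as ER chaperones, oxidases, disulfide isomerases, prolyl isomerases, stress sensors and degradation factors. The choice was made with earlier results of these data known. All 45 were found among the 54752 rows of the count table, and 44 had enough counts to be tested. Each was matched by its Ensembl gene identifier to a symbol in GENCODE M21, on build GRCm38. The cells were mouse embryonic fibroblasts (MEFs), cultured fibroblasts grown out of embryos, of a line described as p53-deleted. The shARF group carried a lentiviral hairpin against p19ARF, the nucleolar tumour suppressor encoded by an alternative reading frame of Cdkn2a, and its genotype was labelled ARF knockdown. The shNT group carried a negative control hairpin, and its genotype was labelled WT although the line itself is p53-deleted. Each group had 3 libraries, labelled biological replicates. Every sample title, in both groups, also held the term neo, which the titles do not explain. Neither a time after infection nor an embryo's age is given in the labels. They also do not say whether replicates were infected or grown separately, so the p-values rest on the spread among these libraries, which may be technical.

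Proteins that enter the ER are bound by chaperones, glycosylated, and closed by disulfide bonds that protein disulfide isomerases pass on and that ERO1 oxidases regenerate. Unfolded protein activates the sensors IRE1, PERK and ATF6, which raise folding capacity and slow protein synthesis, and proteins that fail to fold are returned to the cytosol and degraded (ER-associated degradation, ERAD). Fibroblasts depend on this machinery for the large amounts of collagen and matrix glycoprotein they secrete.

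Total counts were 45226639 to 46305826 in shARF libraries and 40261944 to 47023082 in shNT libraries. Levels are given as CPM, counts scaled to library size with TMM factors; 1 CPM stood for 41.2 to 48.7 counts. The hairpin's target Cdkn2a was at 95.6, 103 and 106.5 CPM in shARF libraries, against 231, 218 and 223 CPM in shNT libraries, so shARF held 45.5% of the shNT level (edgeR quasi-likelihood test, adjusted p = 2.52e-06; exact two-sided permutation p = 0.1, the smallest that 3 against 3 allow). Gene counts do not separate p19ARF from the other product of Cdkn2a, which shares exons with it. Summed markers of fibroblasts stood at 19840 to 19970 CPM in shARF and 16520 to 17930 CPM in shNT, while endothelial markers summed to at most 3.62 CPM and blood and macrophage markers to at most 7.54 CPM in any library. Of the 9 fibroblast markers 5 were higher in shARF and 2 (Pdgfra and Dcn) lower, and Lum and Pdgfrb were not called. Endothelial Kdr was higher (3.13 CPM in shARF and 0.28 CPM in shNT) and Tek lower (0.067 CPM in shARF and 2.16 CPM in shNT). Csf1r (0.338 CPM in shARF and 4.49 CPM in shNT) and Cd68 (1.36 CPM in shARF and 2.5 CPM in shNT) were lower. Smooth muscle markers summed to 1330 to 1413 CPM in shARF and 1394 to 1445 CPM in shNT, with 1 of 5 higher and 3 lower. Cartilage markers summed to 87.8 to 92.3 CPM in shARF and 275 to 284.5 CPM in shNT, and in such bulk libraries fewer cells of a type and less RNA per cell cannot be told apart. The 5 mesothelial markers summed to 111 to 114 CPM in shARF and 105 to 108 CPM in shNT, but 4 were higher and Msln was lower: Upk3b was at 12 CPM in shARF and 0.0137 CPM in shNT, Wt1 at 9.54 CPM in shARF and 0.101 CPM in shNT, and Lrrn4 at 8.91 CPM in shARF and 0 in shNT. The 7 epithelial markers summed to 32.7 to 34 CPM in shARF and 36.8 to 39.7 CPM in shNT, with 2 higher and Krt18 lower, at 0.15 CPM in shARF and 12.7 CPM in shNT. The cultures also differed in genes that mark sex: Xist was at 45.7 ± 7.49 CPM in shARF and 387 ± 26.5 CPM in shNT (SD, n = 3 each). All 4 Y-linked genes examined were higher in shARF and also had counts in shNT, with Ddx3y at 85.3 CPM in shARF and 24.4 CPM in shNT, Eif2s3y at 38.3 CPM in shARF and 12.8 CPM in shNT, Uty at 21.7 CPM in shARF and 9.61 CPM in shNT, and Kdm5d at 19.5 CPM in shARF and 0.782 CPM in shNT. All results below compare the same libraries, and the part of these differences in them was not tested.

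The ER genes split into risers and fallers, most by small amounts. Of the 44 tested, 22 were higher and 14 lower in shARF, and 8 did not pass the test (edgeR, adjusted p under 0.05 over 17128 genes). Across all genes tested the share called was 56.4%, with 28.8% higher and 27.7% lower, so calls were common in this comparison; among those averaging 10 CPM or more the share was 66.8%, and 81.4% of the 43 members at that level were called. With library sizes alone as the scaling, all genes split into 4023 higher and 5874 lower instead of 4930 and 4737, and the members into 19 higher and 14 lower. The median log2 fold change of the members was 0.17, against -0.0080 over all genes, and their median absolute log2 fold change was 0.28, against 0.34 over all genes. Among those averaging 10 CPM or more, the median absolute log2 fold change was 0.275 for the members and 0.263 for all genes. At least 2-fold changes were found for Ero1l and Creb3l1, which rose, and Ero1lb, which fell, against background shares of 6.59% higher and 7.78% lower. In 23 members all shARF libraries lay above all shNT libraries and in 14 below. Of all genes tested 64.6% had groups apart in either direction, a share not matched to the members' level. By role, 83.3% of chaperones and cochaperones were called, 80% of oxidases and disulfide isomerases, and 75% of the collagen chaperone and prolyl isomerases. Of UPR sensors and transcription factors 100% were called, and of tested ERAD genes 70%. These role shares stand beside the 56.4% of all genes tested and the 66.8% of those averaging 10 CPM or more. Together the members took 1.15 to 1.2% of counts in shARF libraries and 1.08 to 1.13% in shNT libraries.

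**Figure D1:**
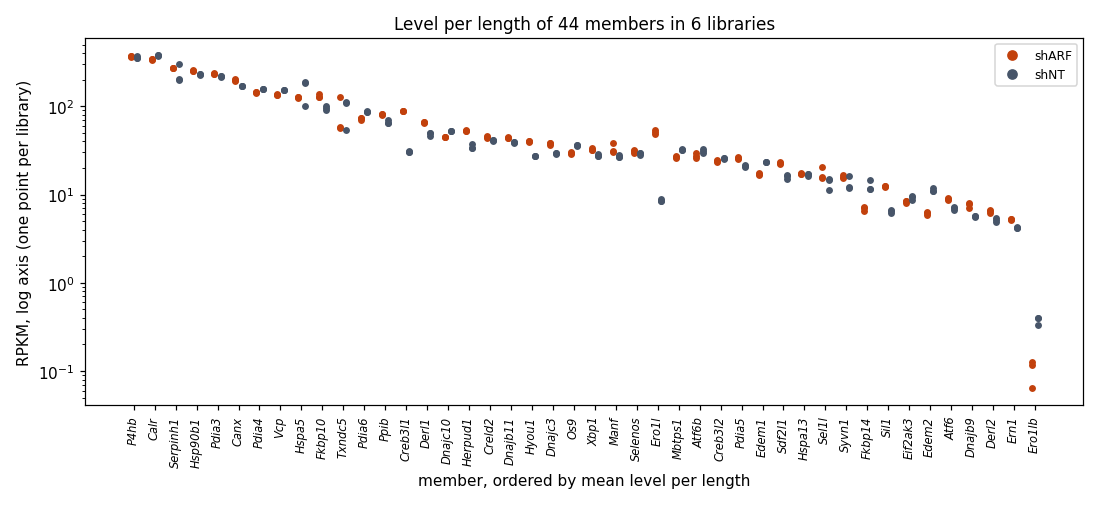
RPKM (CPM per kb of exon, log axis) of the 44 tested members in each library, shARF left of shNT, ordered by mean level. P4hb, at 368 RPKM in shARF and 355 RPKM in shNT, and Calr led the order, and Ero1lb was lowest in both groups.

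Compared per length (RPKM), the most abundant members were chaperones and isomerases. P4hb, which is both a disulfide isomerase and the beta subunit of collagen prolyl 4-hydroxylase, averaged 368 RPKM in shARF and 355 RPKM in shNT. Calr, the lectin chaperone calreticulin, averaged 339 RPKM in shARF and 378 RPKM in shNT, and Serpinh1, the collagen chaperone HSP47, 270 RPKM in shARF and 235 RPKM in shNT. The stress sensors stood at the other end, with Ern1 (IRE1) at 5.23 RPKM in shARF and 4.21 RPKM in shNT and Atf6 at 8.9 RPKM in shARF and 6.96 RPKM in shNT. Derl3, an ERAD factor known from secretory tissues, had 0 counts in all 6 libraries, which allows at most 0.0729 CPM in any of them; this limit covers counting error only. Of the other plasma cell markers, Jchain and Mzb1 were at 0 in all libraries as well, Prdm1 was at 0 in shARF and 0.53 CPM in shNT, and Sdc1, which fibroblasts also express, was at 151 CPM in shARF and 143 CPM in shNT.

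**Figure D2:**
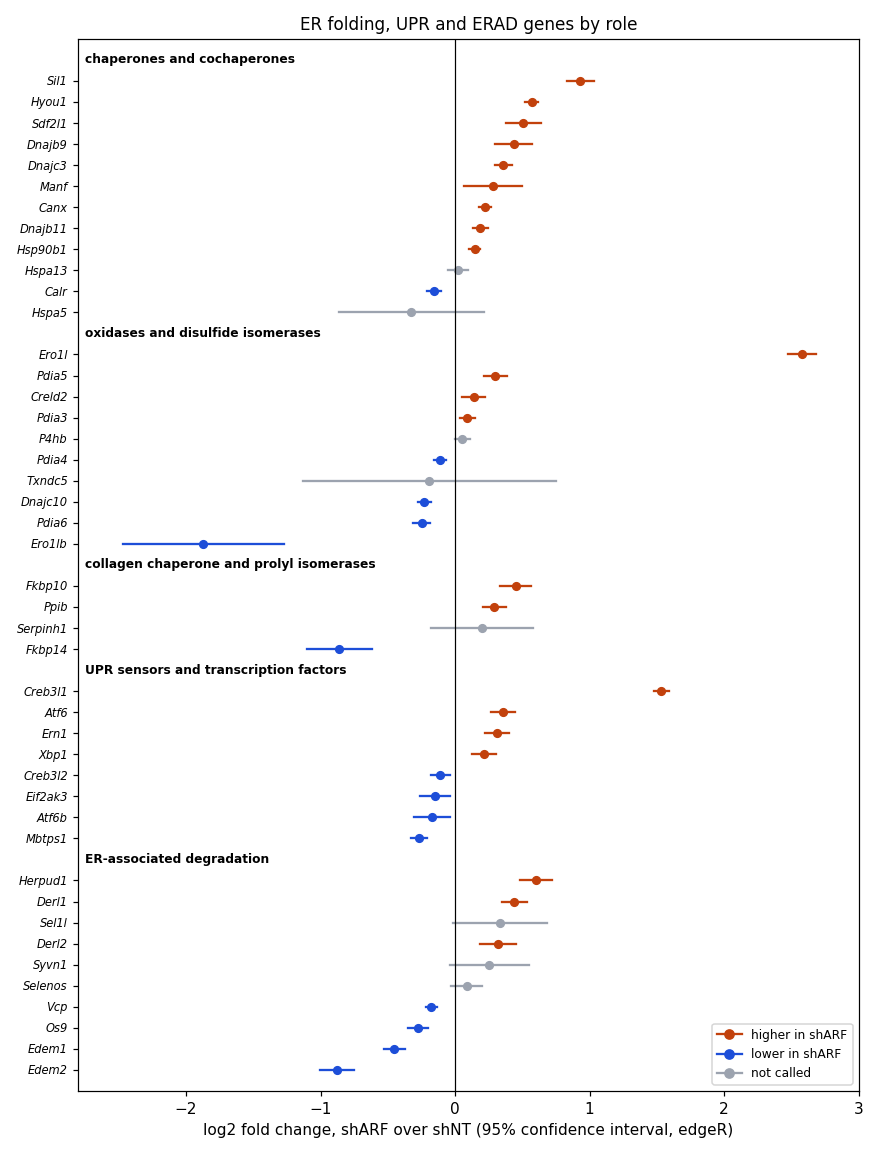
Log2 fold change of shARF over shNT with its 95% confidence interval for the 44 tested members, grouped by role. Ero1l (2.58) and Creb3l1 (1.53) lie far to the right and Ero1lb (-1.87) far to the left, and most other intervals lie within 1 unit of 0.

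Chaperones and cochaperones mostly rose: 9 of 12 were higher in shARF, 1 was lower and 2 did not pass the test. Sil1, the nucleotide exchange factor of the chaperone BiP, was at 42.4, 41.9 and 42.7 CPM in shARF, against 22.3, 22.9 and 21.4 CPM in shNT. Its 3 shARF libraries all lay above its shNT libraries, a 1.91-fold rise (95% confidence interval 1.78 to 2.05; edgeR, adjusted p = 4.06e-06). Hyou1, a large chaperone related to HSP70 that also exchanges nucleotide on BiP, was at 296, 291 and 288 CPM in shARF and 195, 195 and 198.5 CPM in shNT. Its groups were well apart, with a log2 fold change of 0.57 (SE 0.02, adjusted p = 1.66e-06). Dnajc3 (p58IPK), a BiP cochaperone, was at 189, 197 and 195 CPM in shARF, against 152, 152.5 and 149 CPM in shNT (log2 fold change 0.36, adjusted p = 3.59e-05). The other cochaperones Dnajb9 (0.44), Sdf2l1 (0.51) and Dnajb11 (0.19) rose too. Centred on the median of all genes in a 10 Mb window of the chromosome, Hyou1 was at 0.38 and Dnajc3 at 0.09 (adjusted p = 0.0209), both still called. The window median was taken as fixed, here and below, so p-values after centring leave out its own error.

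Of the abundant chaperones, Hsp90b1 (GRP94, the ER form of HSP90) rose to 1024 ± 11.95 CPM in shARF, against 925 ± 8.36 CPM in shNT (log2 fold change 0.15, adjusted p = 3.72e-04; SD, n = 3 each). The lectin chaperone Canx (calnexin) rose to 934 ± 18.6 CPM in shARF, against 800.4 ± 2.53 CPM in shNT (0.22, adjusted p = 8.88e-05). With library sizes alone these 2 rises shrank to 0.056 and 0.13, and Dnajb11 to 0.10, all still called. Calr was the chaperone that fell, to 984, 980 and 964 CPM in shARF, against 1089, 1064 and 1110 CPM in shNT. Its change of -0.16 on the log2 scale (adjusted p = 7.13e-04) was smaller in size than the median of -0.30 of the 98 genes in its 10 Mb window of chromosome 8. With fold changes centred on such windows Calr was called higher (0.15, adjusted p = 0.00109). Hspa13, an ATPase of the HSP70 family, was at 117 ± 1.76 CPM in shARF and 116 ± 3.37 CPM in shNT, and the 95% confidence interval of the ratio was 0.963 to 1.07.

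Hspa5, which encodes BiP, the HSP70 of the ER lumen and the textbook readout of ER stress, gave no call in either direction. It was at 541, 545 and 519 CPM in shARF, against 786, 424 and 802 CPM in shNT. The shARF libraries were alike, whereas shNT replicate 2 lay below all of them and the other shNT libraries above. The ratio of shARF to shNT was 0.798 (95% confidence interval 0.549 to 1.16; edgeR, adjusted p = 0.262). Without shNT replicate 2 the log2 fold change was -0.57 and passed the test (adjusted p = 4.98e-05, within 4.98e-05 to 0.564 over the alternatives). Manf, a secreted BiP cofactor induced by ER stress, was at 134.5, 109.8 and 105.8 CPM in shARF and 94.8, 93.2 and 99.9 CPM in shNT (log2 fold change 0.28, adjusted p = 0.0337). Without shARF replicate 1 its value was 0.17, and with any 1 of the shNT libraries left out it no longer passed the test (adjusted p 0.0561 to 0.0938), nor did it with library sizes alone (0.19, adjusted p = 0.105) or centred on its window (0.22, adjusted p = 0.0807).

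The promoters of several of these genes carry the ER stress response element (ERSE, searched on both strands as CCAAT, 9 bases of any kind, then CCACG), which ATF6 is known to bind together with NF-Y. RefSeq promoter windows (GRCm38.p6, 250 bases before to 50 after the start) matched 37 of 45 members; Hspa13, Hyou1, Manf, Sil1, Fkbp10, Atf6, Creb3l1 and Derl1 were not matched. An ERSE was found for 10 of the 37 members, against 0.119% of 32851 windows of all genes. The related ERSE-II (ATTGG, 1 base of any kind, then CCACG) was found for Herpud1 and Dnajb11, against 0.0365% of windows. Of the ERSE of 10 members, 7 are shown, with the ERSE-II of Herpud1, because members that share the element moved in different directions. Each is written along the gene's strand, 5′ to 3′, with the fixed bases of the element in capitals; an element on the opposite strand reads CGTGG before ATTGG.
Hspa5 (not called), chr2:34772020-34772048, plus strand: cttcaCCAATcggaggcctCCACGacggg
Hsp90b1 (higher), chr10:86705618-86705676, minus strand: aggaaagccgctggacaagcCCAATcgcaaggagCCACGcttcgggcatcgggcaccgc
Canx (higher), chr11:50325780-50325838, minus strand: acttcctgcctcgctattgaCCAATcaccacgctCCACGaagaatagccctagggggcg
Dnajc3 (higher), chr14:118937807-118937865, plus strand: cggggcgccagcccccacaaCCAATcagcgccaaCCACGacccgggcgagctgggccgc
Calr (lower), chr8:84847055-84847113, minus strand: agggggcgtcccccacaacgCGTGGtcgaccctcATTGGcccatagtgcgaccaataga
Pdia6 (lower), chr12:17266471-17266529, plus strand: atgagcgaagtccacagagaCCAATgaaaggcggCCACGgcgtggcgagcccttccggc
Ero1lb (lower), chr13:12565662-12565720, plus strand: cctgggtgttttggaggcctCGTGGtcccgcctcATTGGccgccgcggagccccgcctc
Herpud1 (higher, ERSE-II), chr8:94386357-94386407, plus strand: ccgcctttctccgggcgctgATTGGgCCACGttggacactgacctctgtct
The 10 members with an ERSE were 4 higher, 3 lower, 2 not called (Hspa5 and Syvn1) and 1 not tested (Derl3), and the 27 matched members without it were 11 higher, 11 lower and 5 not called. Hsp90b1 held a second copy, on the opposite strand. The other searched elements were sparse: the XBP1-type element TGACGTGG was found for Vcp and Txndc5 (0.676% of all windows), and the ATF4 and C/EBP composite TGATGNAA for Herpud1 and Txndc5 (3.97% of all windows). A match is a description of the letters and not a binding site.

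The oxidases moved furthest, and in opposite directions. Ero1l (ERO1 alpha), the widely expressed oxidase that recharges disulfide isomerases and is known to be induced by hypoxia and by CHOP (ENSMUSG00000021831.9, chr14:45283087-45318771, minus strand), was at 256, 282 and 271 CPM in shARF, against 46.6, 44.4 and 44.6 CPM in shNT. The groups were far apart, a 5.97-fold rise (95% confidence interval 5.55 to 6.41; edgeR, adjusted p = 1.54e-07), past 96.1% of all genes tested in the size of its change. Its paralog Ero1lb (ERO1 beta), best known from pancreas and other professional secretory tissue (ENSMUSG00000057069.7, chr13:12565874-12611396, plus strand), was at 0.424, 0.844 and 0.783 CPM in shARF, against 2.65, 2.65 and 2.21 CPM in shNT. Those levels rest on 91 counts in shARF and 342 in shNT, and the ratio of shARF to shNT was 0.273 (95% confidence interval 0.181 to 0.414; adjusted p = 6.91e-04). Per length, Ero1l stood at 51 RPKM in shARF and 8.55 RPKM in shNT, far above Ero1lb at 0.103 RPKM in shARF and 0.376 RPKM in shNT, and the summed CPM of both oxidases was 257 to 283 in shARF and 46.8 to 49.3 in shNT.

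The rest of the class of oxidases and disulfide isomerases went both ways. Of its 8 members besides the ERO1 oxidases, 3 were higher, 3 lower and 2 not called. Pdia5 (log2 fold change 0.30), Creld2 (0.14) and Pdia3 (0.09) rose. Pdia3, the isomerase ERp57 that works with calnexin and calreticulin on glycoproteins, was at 722, 753 and 730 CPM in shARF, against 693, 699 and 679 CPM in shNT, apart but by little (adjusted p = 0.0129). Without shNT replicate 3 it was not called (0.07, adjusted p = 0.0507), and with library sizes alone its log2 fold change was 7.65e-04. Creld2 missed the test without shNT replicate 1 (adjusted p = 0.0545), with library sizes alone (0.050, adjusted p = 0.275) and when centred on its window (0.07, adjusted p = 0.149).

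Dnajc10 (ERdj5), a reductase that opens disulfides of proteins bound for degradation, fell to 223, 226 and 227 CPM in shARF, against 261, 265 and 265 CPM in shNT (-0.23, adjusted p = 8.88e-05). Pdia6, which was at 273, 278 and 263 CPM in shARF and 319, 320 and 328 CPM in shNT, fell by 0.25 on the log2 scale (adjusted p = 2.45e-04). All shARF libraries of both genes lay below all of their shNT libraries. Pdia4 was 92.5% of shNT (adjusted p = 0.00167), but the median of its window on chromosome 6 was -0.21, and centred on it Pdia4 was called higher (0.10, adjusted p = 0.00332). P4hb was at 1057, 1058 and 1046 CPM in shARF, against 998.1, 997.3 and 1050 CPM in shNT. Its groups overlapped (ratio 1.04, 95% confidence interval 0.997 to 1.08; adjusted p = 0.101), and it was called higher without shNT replicate 3 (0.07, adjusted p = 0.00979) and when centred on its window (0.11, adjusted p = 0.00808).

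Txndc5, an isomerase of fibroblasts and endothelium, was at 565, 256 and 258 CPM in shARF, against 487, 501 and 244 CPM in shNT. The highest library was 2.21-fold above the lowest in shARF and 2.06-fold in shNT, and the 95% confidence interval of the ratio ran from 0.456 to 1.68 (adjusted p = 0.711). Without shARF replicate 1 the log2 fold change was -0.67 (adjusted p = 0.127), and without shARF replicate 2 or 3 it was 0.0071 or 0.0024. Within-group ratios over 1.3 between the highest and the lowest library were found for 5 of the 43 members with at least 10 CPM (Hspa5, Txndc5, Serpinh1, Sel1l and Syvn1) and for 11.4% of all genes at that level, against 11.6% of these members. Which libraries were high differed from gene to gene, as the plot of the members with uneven libraries shows. Txndc5 shares 6.92% of its exon bases with an antisense gene and 4.99% with Bmp6 on the other strand.

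**Figure D3:**
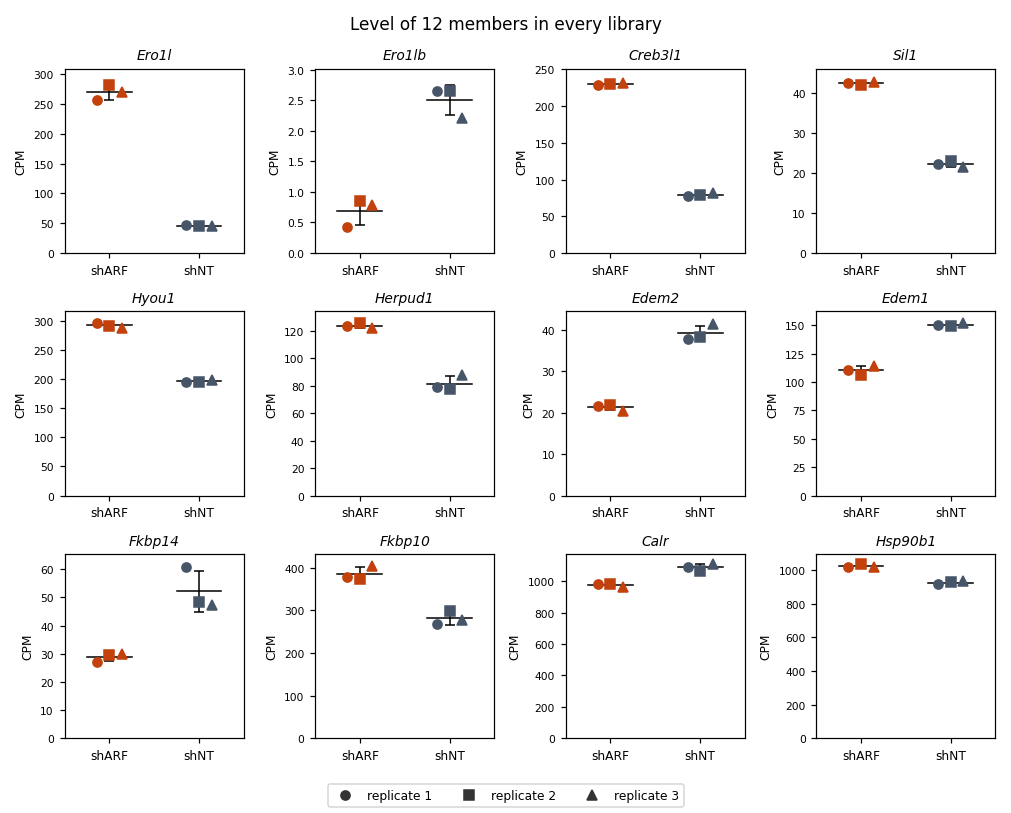
CPM of 12 members in each library (points, shaped by replicate number), with the mean and SD of each group (bars, n = 3), shARF left and shNT right. All 12 were taken from the members whose groups do not overlap, as was so for 64.6% of all genes tested. Ero1l, Ero1lb and Creb3l1 show the widest separation.

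The collagen chaperone and prolyl isomerases gave 2 higher, 1 lower and 1 not called among 4 members. Fkbp10 (FKBP65), a prolyl isomerase of procollagen, was at 378, 372.5 and 405 CPM in shARF, against 269, 299 and 277 CPM in shNT, a 1.37-fold rise (95% confidence interval 1.26 to 1.48; adjusted p = 2.43e-04). Ppib (cyclophilin B), part of the collagen prolyl 3-hydroxylase complex, was at 273, 268 and 264.5 CPM in shARF, against 212, 215 and 230.5 CPM in shNT, and rose by 0.29 on the log2 scale (adjusted p = 4.35e-04; 0.12 and adjusted p = 0.0278 when centred on its window). Fkbp14 (FKBP22), another isomerase of collagens, went the other way, with 27.1, 29.4 and 29.8 CPM in shARF and 60.6, 48.5 and 47.3 CPM in shNT. It held 55.1% of the shNT level (adjusted p = 3.92e-04). Fkbp14 overlaps Plekha8 on the opposite strand over 5.01% of its exon bases. Plekha8 was at 12 CPM in shARF and 36.7 CPM in shNT, and whether the counting used strand is not known from the labels or headers.

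Serpinh1 was at 664.5, 658 and 657 CPM in shARF, against 481, 498 and 740.5 CPM in shNT. The shARF libraries agreed closely, and shNT replicate 3 lay above them while the other shNT libraries lay below. Its ratio of 1.15 had a 95% confidence interval of 0.885 to 1.5 (adjusted p = 0.317). Without shNT replicate 3 the log2 fold change was 0.43 and passed the test (adjusted p = 5.63e-05, within 5.63e-05 to 0.664 over the alternatives).

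**Figure D4:**
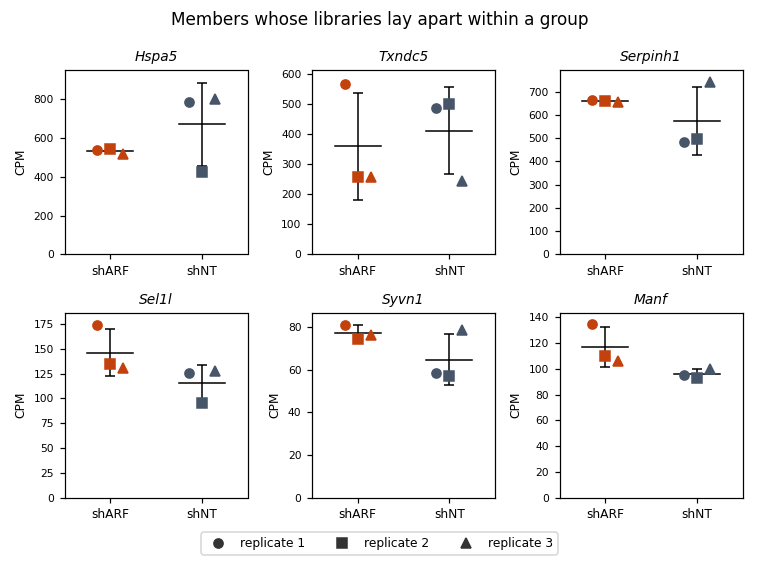
CPM in each library (points, shaped by replicate number) with the mean and SD (bars, n = 3) for 6 members. In 5 the highest library was over 1.3-fold above the lowest within a group, and Manf was at 1.27 in shARF. Hspa5 has its low library in shNT replicate 2 (424 CPM), Serpinh1 its high one in shNT replicate 3 (740.5 CPM), and Txndc5 sits at a high or a low level in both groups.

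Among the UPR sensors and transcription factors, 4 of 8 were higher and 4 lower. Creb3l1 (OASIS; ENSMUSG00000027230.9, chr2:91982328-92024502, minus strand), an ER membrane-bound transcription factor cleaved in the Golgi and known to drive collagen gene expression in osteoblasts of mice, was at 229, 230 and 232 CPM in shARF, against 78.1, 79.6 and 81 CPM in shNT. Libraries agreed closely within groups, and the rise was 2.9-fold (95% confidence interval 2.78 to 3.02; adjusted p = 1.47e-07). Its relative Creb3l2 (BBF2H7), known for collagen secretion in mouse cartilage, was 92.6% of shNT (173 ± 4.42 CPM in shARF and 187 ± 4.59 CPM in shNT; adjusted p = 0.018) and lost its call without shARF replicate 1 or 2 or shNT replicate 1 or 2 (adjusted p 0.0502 to 0.0681). Centred on its window, whose median was -0.11, its value was -8.81e-04 (adjusted p = 0.994).

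The sensors split. Atf6 was at 81.5, 83.9 and 81 CPM in shARF, against 64.7, 65.8 and 62.1 CPM in shNT (log2 fold change 0.36, adjusted p = 1.81e-04), and Ern1, at 42, 43.5 and 42.7 CPM in shARF and 34.2, 34.1 and 35 CPM in shNT, rose by 0.31 (adjusted p = 3.83e-04). Xbp1, whose mRNA is spliced by IRE1 into an active transcription factor, was at 110, 104 and 104 CPM in shARF, against 89, 94.4 and 89.8 CPM in shNT (0.22, adjusted p = 0.00246). Gene counts do not separate spliced from unspliced Xbp1. In each of these 3 genes all shARF libraries lay above all shNT libraries, and with library sizes alone Xbp1 was at 0.13 (adjusted p = 0.0281).

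Mbtps1 (site-1 protease), which cleaves ATF6 in the Golgi, was at 283, 286 and 276 CPM in shARF, against 336, 348 and 334 CPM in shNT, and fell by 0.27 (adjusted p = 1.18e-04). The median of the 63 genes in its window on chromosome 8 was also -0.27, and centred on it the value was 3.56e-04. Atf6b, the ATF6 paralog, was 88.8% of shNT (adjusted p = 0.0353) and Eif2ak3 (PERK) 90.3% (adjusted p = 0.0313). Both calls were weak: leaving out shARF replicate 2 or 3 or shNT replicate 2 ended either of them, shNT replicate 1 that of Atf6b (adjusted p = 0.0833), and shARF replicate 1 and shNT replicate 3 that of Eif2ak3 (0.102 and 0.082). Centred on its window, whose median was -0.14, Atf6b was at -0.030 (adjusted p = 0.691). Eif2ak3, in a window of chromosome 6 with a median of -0.30, was called higher when centred on it (0.15, adjusted p = 0.0302).

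Of the 10 tested ERAD genes, 3 rose, 4 fell and 3 did not pass the test. Herpud1, a stress-induced scaffold of the HRD1 ligase complex, was at 124, 126 and 122 CPM in shARF, against 79.3, 77.7 and 87.7 CPM in shNT, a 1.52-fold rise (95% confidence interval 1.4 to 1.65; adjusted p = 6.36e-05). Genes in its window on chromosome 8 had a median of -0.34, and centred on it the value of Herpud1 was 0.94. Derl1, a channel component, was at 216, 222 and 218 CPM in shARF, against 152, 166 and 166 CPM in shNT (log2 fold change 0.44, adjusted p = 9.41e-05), and Derl2 rose by 0.32.

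Edem1 and Edem2, mannosidase-like proteins that mark glycoproteins for degradation, fell, while the related Edem3, which is no member, was at 89.2 ± 0.922 CPM in shARF and 85.7 ± 4.51 CPM in shNT (SD, n = 3 each; adjusted p = 0.294). Edem2 was at 21.6, 21.8 and 20.45 CPM in shARF, against 37.9, 38.3 and 41.4 CPM in shNT, a ratio of 0.544 (95% confidence interval 0.498 to 0.594; adjusted p = 1.47e-05). Edem1 was at 111, 106 and 114 CPM in shARF, against 150.5, 149.4 and 152.4 CPM in shNT (73.1% of shNT, adjusted p = 3.27e-05; log2 fold change -0.26 when centred on its window, against -0.45). In both genes every shARF library lay below every shNT library. The lectin Os9, which hands glycans to the same complex, fell to 77.9 ± 1.84 CPM in shARF, against 94.3 ± 1.68 CPM in shNT (SD, n = 3 each), and missed the test when centred on its window (-0.040, adjusted p = 0.344). Vcp, the cytosolic ATPase that extracts substrates, fell to 662, 653 and 648 CPM in shARF, against 741, 734 and 746 CPM in shNT (-0.18, adjusted p = 1.43e-04; -0.36 when centred on its window).

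The HRD1 ligase itself, Syvn1, was at 81.2, 74.2 and 76.4 CPM in shARF and 58.55, 57.2 and 78.4 CPM in shNT (adjusted p = 0.118). It passed the test without shNT replicate 3 (0.41, adjusted p = 0.00105). Its partner Sel1l was at 174, 134 and 131 CPM in shARF, against 126, 95.2 and 127 CPM in shNT. The groups did not overlap, but the spread within them was large (ratio 1.26, 95% confidence interval 0.988 to 1.61; adjusted p = 0.0955). Selenos, a selenoprotein that recruits VCP, was at 45.6 ± 2.03 CPM in shARF and 43 ± 1.45 CPM in shNT, with an interval of 0.979 to 1.15.

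Grouped by the arm of the response they are best known to follow, the members also went both ways. The share called was 83.3% in the ATF6 arm and 85.7% in the XBP1 arm, against 56.4% of all genes tested. Among genes averaging 10 CPM or more it was 66.8%. Of 12 genes of the ATF6 arm, 7 were higher and 3 lower (Calr, Pdia4 and Pdia6; 1 when centred on windows), and their summed CPM was 3982 to 4120 in shARF and 3766 to 4265 in shNT, which overlap. Of the 7 tested genes of the XBP1 arm, 5 were higher and 1 lower (Edem1), with sums of 736.8 to 749.2 CPM in shARF and 623.7 to 659.9 CPM in shNT. The PERK and ATF4 arm was a list of genes that are no members, chosen with earlier results of these data known. Of its 16 genes 13 were higher and 0 lower (81.2% called, median 0.95 on the log2 scale). The sensor PERK itself (Eif2ak3, a member) was called lower, at -0.15, and whether PERK acted on the genes of this list was not tested. With library sizes alone, upper quartile scaling, DESeq2 or without shNT replicate 1, 1 gene of this arm was called lower. The 3 genes of this arm with the smallest p were the pseudokinase Trib3 (132 ± 3.19 CPM in shARF and 32.6 ± 0.761 CPM in shNT), the stress regulator Sesn2 (154 ± 2.59 CPM in shARF and 39 ± 2.36 CPM in shNT) and Eif2s1, the PERK substrate eIF2 alpha (192 ± 0.865 CPM in shARF and 105 ± 1.19 CPM in shNT; SD, n = 3 each). Atf4 itself was not called, and its groups overlapped. It was at 508, 320 and 265 CPM in shARF, against 186, 288 and 307 CPM in shNT (edgeR, adjusted p = 0.185). Ddit3, which encodes CHOP, a known inducer of Ero1l, was at 33.9 ± 1.75 CPM in shARF and 22 ± 2.29 CPM in shNT (log2 fold change 0.63, adjusted p = 7.32e-04).

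**Figure D5:**
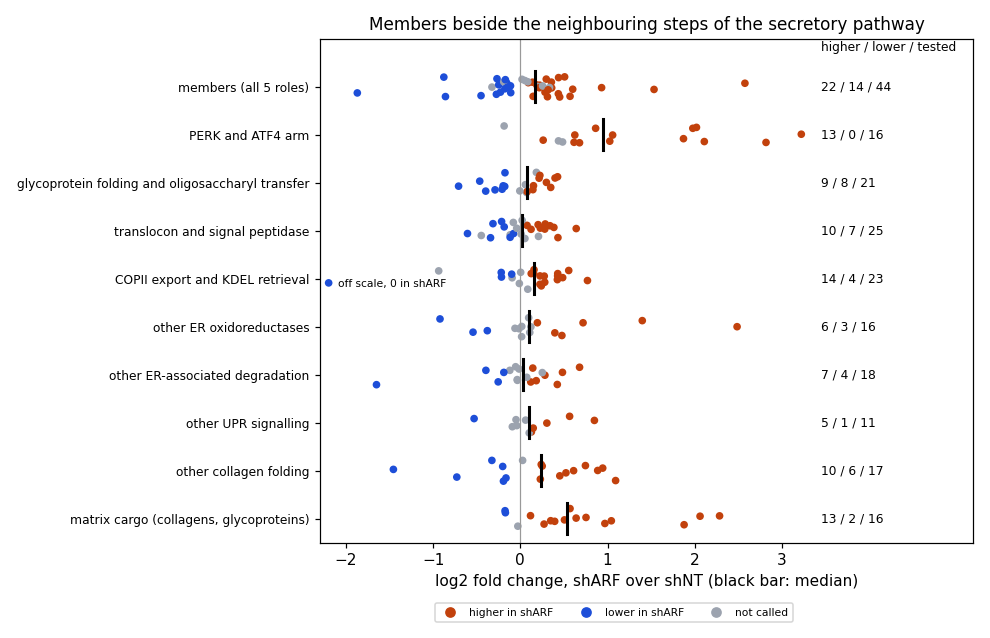
Log2 fold change of shARF over shNT for the members and for 9 lists of genes at neighbouring steps of the secretory pathway (points coloured by call, black bar the median), with counts of higher, lower and tested genes at the right. The PERK and ATF4 arm (median 0.95) and the matrix cargo (0.54) lie to the right, while the translocon (0.02) and glycosylation (0.07) lists straddle 0. The lists were chosen with earlier results of these data known.

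At the neighbouring steps of secretion genes also moved both ways, as did all genes tested, with 28.8% higher and 27.7% lower. The share called was 68% for the translocon list, 81% for the glycoprotein list and 78.3% for the COPII list. Over all genes tested it was 56.4%, and 66.8% among those averaging 10 CPM or more. Among translocon and signal peptidase genes 10 of 25 were higher and 7 lower (median log2 fold change 0.02). The smallest p belonged to the risers Srp54a (0.64), Ssr1 (0.28) and Sec63 (0.43), parts of the signal recognition particle, the translocon-associated complex and the channel's link to BiP. The signal peptidase subunit Sec11c (-0.61) and the channel subunit Sec61g (-0.34) were among those that fell. Glycoprotein folding and oligosaccharyl transfer had 9 of 21 higher and 8 lower (median 0.07). Uggt1, the glucosyltransferase that senses misfolded glycoproteins, rose (0.40), as did the catalytic subunit Stt3b (0.43), while Magt1, an oxidoreductase subunit that works with STT3B, fell (-0.47). COPII export and KDEL retrieval had 14 of 23 higher and 4 lower (median 0.16), with Mia2 (0.77), Tmed10 (0.55) and the retrieval receptor Kdelr3 (0.49) higher; without shARF replicate 1 or 3, 2 were lower.

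Other ER oxidoreductases had 6 of 16 higher and 3 lower (median 0.10). The share called was 56.2% in this list, 61.1% among other ERAD genes and 54.5% among other UPR signalling genes. These shares were near the 56.4% of all genes tested and below the 66.8% of those averaging 10 CPM or more. Qsox2, a sulfhydryl oxidase, was at 51 ± 1.22 CPM in shARF and 19.4 ± 0.668 CPM in shNT, and Gpx7, a peroxidase that uses the hydrogen peroxide ERO1 makes, at 44.6 ± 2.07 CPM in shARF and 7.96 ± 1.25 CPM in shNT (log2 fold change 2.49, adjusted p = 3.96e-06). Tmx1 rose by 0.72. Other ERAD genes had 7 of 18 higher and 4 lower (median 0.03). Fam8a1, a cofactor of HRD1, fell to 29.7 ± 0.928 CPM in shARF, against 93.3 ± 1.96 CPM in shNT (-1.65), whereas the ubiquitin-conjugating enzyme Ube2j1 (0.68) and the ligase March6 (0.28) rose. With library sizes alone, 4 genes of this list were higher and 6 lower. Other UPR signalling genes had 5 of 11 higher and 1 lower (median 0.10), with the smallest p for the risers Wfs1 (0.85), Creb3 (0.30) and Map3k5 (0.57); with library sizes alone these counts were 3 and 2, and without shARF replicate 1 or shNT replicate 2 the count of lower genes was 0.

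Other collagen folding genes had 10 of 17 higher and 6 lower (median 0.24). The share called was 94.1% in this list and 93.8% in the matrix cargo list, against 56.4% of all genes tested. Among genes averaging 10 CPM or more it was 66.8%. P4ha1 (0.95), Plod2 (1.09) and Plod1 (0.89), hydroxylases of collagen proline and lysine, had the smallest p and rose, and the prolyl 3-hydroxylase P3h2 had the change of greatest size, to 14.7 ± 0.796 CPM in shARF, against 40.3 ± 2.82 CPM in shNT (-1.46, adjusted p = 5.02e-06; SD, n = 3 each). Collagens and matrix glycoproteins that pass through this machinery had 13 of 16 higher and 2 lower (median 0.54), with a summed level of 40690 to 41050 CPM in shARF and 30080 to 32050 CPM in shNT. The basement membrane collagen Col4a2 (1.88), the microfibril protein Fbn1 (0.97) and the fibrillar collagen Col5a3 (2.29) had the smallest p and rose. The 4 members of the collagen chaperone and prolyl isomerase class summed to 1328 to 1356 CPM in shARF and 1022 to 1296 CPM in shNT.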

How the data were processed

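Stranded, rRNA-depleted total RNA libraries (per the labels' protocols) were given as whole-number counts per gene, deposited by the authors in a table on build GRCm38. Tools named without roles, per the submitters' processing notes, were HISAT2 2.1.0, StringTie 1.3.2, Trim Galore 0.4.1, Picard 2.13.2, DESeq2 1.34.0 and SAMtools 0.1.19. The counter, its strand setting and any removal of duplicates were not given in the sources used here. Without a stated strand setting, reads of overlapping genes cannot be told apart: 15 members share exon bases with another gene. Calr has a processed pseudogene that can share its reads. Another 6 columns, which match no sample, were not used. Columns were matched to samples by group and replicate number; in shARF columns the sequencing index differs from the titles.

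Symbols and exon lengths came from GENCODE M21. The members and lists were chosen with earlier results of these data known. The main test was the quasi-likelihood test of edgeR 4.0.16 in R 4.3.3 with group as the term, TMM scaling, filterByExpr (minimum count 10, minimum total 15), a prior count of 0.125 and Benjamini-Hochberg adjustment over 17128 genes at 0.05. Intervals are at 95%, from the fit's standard error. RPKM are TMM-scaled CPM per kb of merged exons. About 41.2 counts or more stand behind 1 CPM. Members given with every library were, in each role, the 3 smallest p, the 2 highest levels and any called change of at least 2-fold, and further members chosen after their values were seen; of each other list, the 3 smallest p. Atf4, Ddit3, Edem3, P3h2, Sec11c, Sec61g and the single markers were also named after their values were seen. Steps were tested on simulated counts. Alternatives were DESeq2 1.42.0, limma-voom (limma 3.58.1), other scalings and filters, a replicate block, a threshold of 0.01, each library left out, and centring on the median of 10 Mb windows with at least 15 tested genes.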

Additional observations from a re-analysis of the deposited data

How the results depend on the processing

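Of the 36 members called, all 36 kept call and direction with DESeq2, limma-voom, RLE scaling and a filter of 1 CPM in 3 libraries, 35 with upper quartile scaling (without Pdia3) and with a filter of 5 CPM, which leaves out Ero1lb, and 33 with library sizes alone or no filter on low counts. At a threshold of 0.01, 30 remained. Leaving out 1 library kept 32 to 34. Centring on 10 Mb windows kept 27, with 24 members called higher and 8 lower, and turned Calr (0.15), Pdia4 (0.10) and Eif2ak3 (0.15); Mbtps1 came to 3.56e-04 and Hspa13 to -0.33 (adjusted p = 1.38e-04). In these cases the subtracted window median sets the change, and its own error is not part of the p-values. Uncalled members crossed 0: Hspa13 with upper quartile scaling (-0.011), library sizes alone (-0.070), a filter of 5 CPM (-0.0028) and over left-out libraries (-0.0032 to 0.032), P4hb (-0.036) and Selenos (-0.0047) with library sizes alone, and Txndc5 over left-out libraries (-0.67 to 0.0071, with 0.0024 without shARF replicate 3). Library sizes alone moved the median of all genes to -0.098. Deviations of same-numbered libraries from their group means correlated at -0.0905, -0.021 and 0.0065, and no library of shARF correlated best with its own number. With the replicate block, 8913 genes were called, against 9667, with 22 members higher and 12 lower; Manf, Atf6b and Creb3l2 were not called and Sel1l was (adjusted p = 0.045). Counts of genes called lower also moved by more than 1.5 times in the COPII, PERK and UPR signalling lists and, when centred, in the ATF6 arm (1, against 3), as did those called higher with library sizes alone in the other ERAD (4, against 7) and UPR signalling (3, against 5) lists. Depth limited Ero1lb and Derl3.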
